A study of Mus musculus with 15 samples.

Results

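Livers of mice fed a diet made to cause non-alcoholic steatohepatitis (NASH) were set against livers of mice fed chow, with the same control vector in both groups. The comparison used 6 of the 15 libraries of the study, chosen by their labels, and tested every gene whose counts passed a filter. All mice were male C57BL/6J. Both groups had received an adeno-associated virus of serotype 8 (AAV8) that expressed green fluorescent protein (GFP) from the TBG promoter, a promoter of the thyroxine binding globulin gene that is active in hepatocytes, so every library came from a virus-treated liver. The 3 NASH libraries came from mice on the FPC NASH diet with sugar water for 16 weeks. The 3 chow libraries came from mice on standard chow with normal water for 16 weeks. The food and the drinking water therefore differed together and cannot be told apart. The other libraries of the study, from NASH diet mice given Activin A or hairpin vectors, were not used here.

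The liver takes up the sugar, fat and amino acids of a meal, turns surplus carbon into fat, breaks down nitrogen to urea, secretes most plasma proteins and clears drugs and steroids. Steatohepatitis joins fat storage in hepatocytes with cell injury, immune cell entry and scarring. In mice many secreted and steroid-metabolising hepatocyte genes also follow the sex-specific pattern of growth hormone release.

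Total counts ran from 15276879 to 20530170 per library, and albumin took 4.53% to 6.70% of them. All 10 hepatocyte markers examined were detected at high level in both groups, and 3 of them fell on the diet, namely Cps1, Ttr and Serpina1c. The first principal component, with 59.7% of the variance, separated the groups. Same-group libraries differed beyond counting noise (chi-square per degree of freedom of 35.0 to 71.4), and none was treated as a duplicate. The labels do not state separate animals, so p-values reflect only the spread among these libraries, which could be technical in part. Levels are counts per 1000000 counts (CPM) scaled with TMM factors, listed for libraries 1, 2 and 3 of a group in that order. Log2 fold changes are given with an approximate standard error (SE), from edgeR's quasi-likelihood test with 3 libraries per group. This SE is the absolute log2 fold change divided by the square root of the test's F statistic. For genes with very few counts in a group it is only a rough guide.

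On the NASH diet many genes of low level rose and many of the most abundant ones fell. Of 14388 genes tested, 1607 rose (11.2%) and 838 fell (5.82%) at a Benjamini-Hochberg adjusted p under 0.05 in edgeR, 17.0% in all. At least 2-fold changes were held by 1235 of the higher and 390 of the lower genes. The 3 libraries of one group did not overlap those of the other for 35.0% of genes. Among the 507 genes with a mean log2 CPM above 8, only 37 rose and 146 fell. Among the 2946 genes with a mean log2 CPM over 0 and up to 2, 464 rose and 85 fell. The higher genes together made up 9.76% to 12.6% of the CPM in NASH libraries and 3.06% to 3.83% in chow libraries. The lower genes made up 11.1% to 13.0% and 22.6% to 25.0%. The number of genes that held 50% of the CPM of a library was 243 to 290 on the NASH diet and 155 to 193 on chow, so the liver transcriptome was spread over more genes in every NASH library than in any chow library. Leaving out single libraries gave 1030 without chow library 1 and 971 without NASH library 1 for the higher genes and 487 without chow library 1, 384 without NASH library 1 and 432 without NASH library 2 for the lower. With libraries scaled by their totals alone, the median of all genes moved from -0.01 to 0.24 on the log2 scale and the share of calls that were higher from 65.7% to 86.8%, and the most abundant genes gave 68 higher and 92 lower calls.

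**Figure D1:**
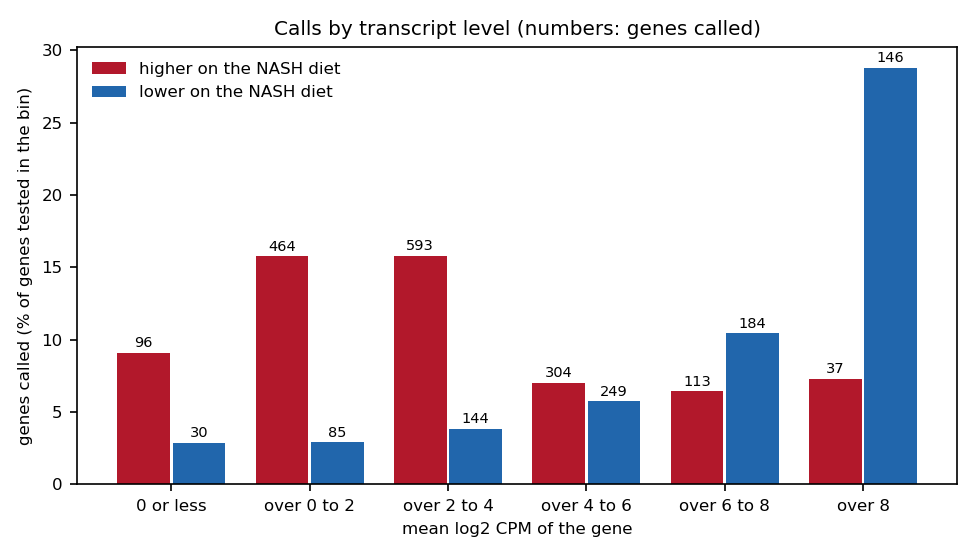
Share of tested genes called higher (red) or lower (blue) on the NASH diet, in percent (y axis), by the gene's mean log2 CPM over the 6 libraries (x axis), with the number of genes above each bar. The share lower is greatest in the bin above 8, where 146 of 507 genes fell.

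**Figure D2:**
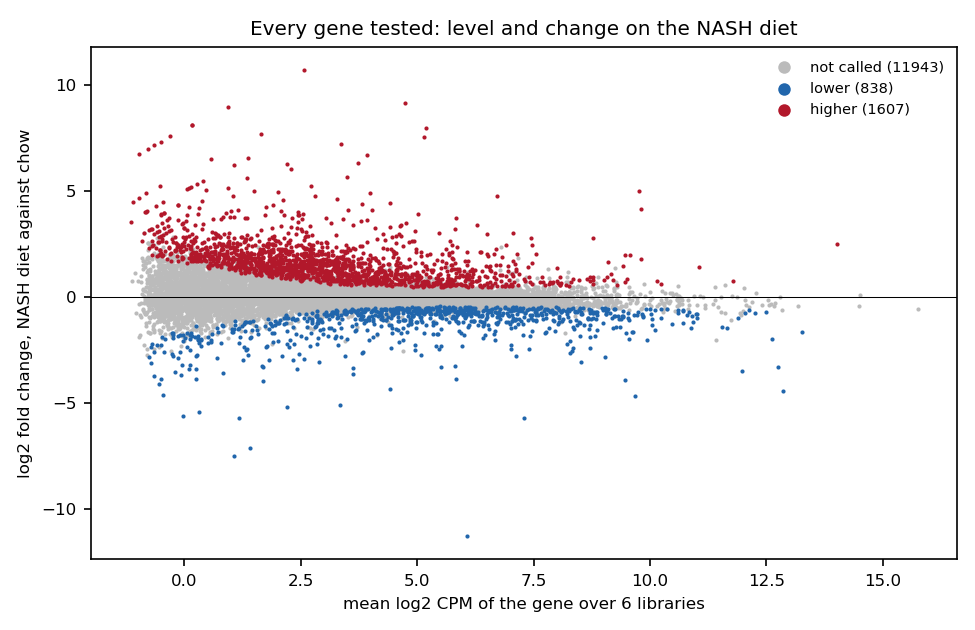
Log2 fold change, NASH diet against chow (y axis), against the mean log2 CPM over the 6 libraries (x axis), 1 point per gene tested. Of the 14388 genes, 1607 (red) were called higher and 838 (blue) lower.

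The transcript that gained most was Scd1, which encodes the stearoyl-CoA desaturase that makes monounsaturated fatty acids. Scd1 stood at 38393, 28064 and 17606 CPM on the NASH diet and 3081, 6775 and 4849 CPM on chow, and rose by 2.52 ± 0.35 on the log2 scale (edgeR adjusted p = 0.00115). Its groups did not overlap, although NASH library 3 held less than the other NASH libraries. Per kilobase of transcript, Scd1 ranked in place 7 of all genes on the NASH diet, among albumin, apolipoproteins and mitochondrial genes. Other large gains were those of Apoa4, an apolipoprotein of triglyceride-rich particles, of Elovl5, which elongates polyunsaturated fatty acids, and of Aldh3a2, which oxidises fatty aldehydes. Apoa4 stood at 1587, 1219.7 and 2240.1 CPM against 47.3, 54.4 and 55.1 CPM, Elovl5 at 1379, 1121 and 1140.0 against 218, 354 and 351 CPM, and Aldh3a2 at 1407, 1208 and 1535 against 250.5, 495 and 449 CPM. All chow libraries lay below all NASH libraries for these 3 genes.

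The largest losses were those of secreted proteins. The major urinary proteins (Mup) are small carriers of pheromones that male mouse livers secrete. They and the Serpina1 and Serpina3 families of protease inhibitors had members among the top 15 genes per kilobase on chow. Mup7 fell from 16138, 9033 and 12474 CPM on chow to 204, 1499 and 2044 CPM on the NASH diet, a log2 fold change of -3.33 ± 0.65 (edgeR adjusted p = 0.00667). Serpina1e, an antitrypsin gene, fell from 15519.9, 12779 and 13862 to 521, 611 and 822 CPM, a log2 fold change of -4.43 ± 0.24, and Serpina3k from 14446, 14142 and 16473 to 3000.5, 5099.5 and 6050.2 CPM. NASH library 1 was the lowest for all 3 of these genes. Mup7 and Serpina1e ranked in places 3 and 8 per kilobase on chow and neither was among the top 15 on the NASH diet. The members of these families are near-identical in sequence, and no source used here says how the authors assigned their shared reads, so values of single members are uncertain. Not every Mup gene moved the same way: Mup19 stood at 4.27, 95.2 and 461 CPM on the NASH diet and 48.9, 33.3 and 27.2 CPM on chow, with overlapping groups and no call (edgeR adjusted p = 0.159), a gene chosen after its values were seen. Car3, the muscle and liver carbonic anhydrase, fell from 3972, 4831 and 5304 to 1597, 1967 and 1596 CPM.

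These few transcripts showed in sums over chromosomes, where genes of chromosome 4, which holds the Mup cluster, summed to 54256 to 64806 CPM on the NASH diet and 90573 to 104860.0 CPM on chow. Chromosome 12, which holds the Serpina cluster, summed to 32849 to 39925 against 66485 to 67801 CPM. Chromosome 19, with Scd1, summed to 47816 to 68511 against 36354 to 40584 CPM. With TMM factors the CPM of all tested genes also summed to less on the NASH diet, 883134 to 940425 against 1041860 to 1140390. Part of each lower sum is therefore shared by all genes. Calls were spread over all chromosomes, from 9.68% of 31 mitochondrial genes to 21.0% of 866 genes on chromosome 1.

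The greatest fold changes belonged to genes that were close to silent in one group. Cyp2b9, a cytochrome P450 of the female liver, had 0 counts in the chow libraries and 13.6, 16.97 and 3.24 CPM on the NASH diet, at least 181-fold higher (floor of 3 counts over the group). Sprr1a, a cornified envelope protein of stressed epithelia, was also at 0 on chow and stood at 5.08, 4.01 and 1.05 CPM, at least 54.7-fold higher. Ucp3, a mitochondrial carrier known from muscle and brown fat, was at least 20.04-fold higher, and Cldn4, a tight junction claudin, at least 17.1-fold higher. Levels of Sprr1a and Cyp2b9 were lowest in NASH library 3. Floors and count intervals cover counting error only. Genes at or near 0 in every library of a group, here and below, could pass the count filter only through the other group. Their direction was thus set by the filter, and their p-values are no separate support for it.

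Ly6d, a surface protein of squamous epithelium and B cell precursors, stood at 75.7, 103 and 36.8 CPM on the NASH diet and 0.05801, 0.287 and 0.513 CPM on chow, a rise of 7.98 ± 0.55 (edgeR adjusted p = 3.45e-05). Cidea, a lipid droplet protein of brown fat and fatty liver, stood at 58.8, 84.3 and 66.3 against 0, 0.645 and 0.513 CPM and rose by 7.55 ± 0.47. Fam83a, a signalling protein of epithelial tumours, stood at 31.3, 27.1 and 18.97 against 0.232, 0.287 and 0.449 CPM and rose by 6.30 ± 0.32. Each of these lay under 1 CPM in every chow library, with Cidea at 0 in chow library 1, and over 15 CPM in every NASH library. Mmp7, the metalloproteinase matrilysin of epithelia, had 379 counts in the NASH libraries and 1 in the chow libraries, a ratio of 278 with an exact 95% counting interval of 49.6 to 11005. Fabp3, the heart fatty acid binding protein, had 298 counts against 2, a ratio of 109 (30.0 to 906), and Aqp7, the glycerol channel of fat cells, 242 against 2, a ratio of 88.7 (24.3 to 737).

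**Figure D3:**
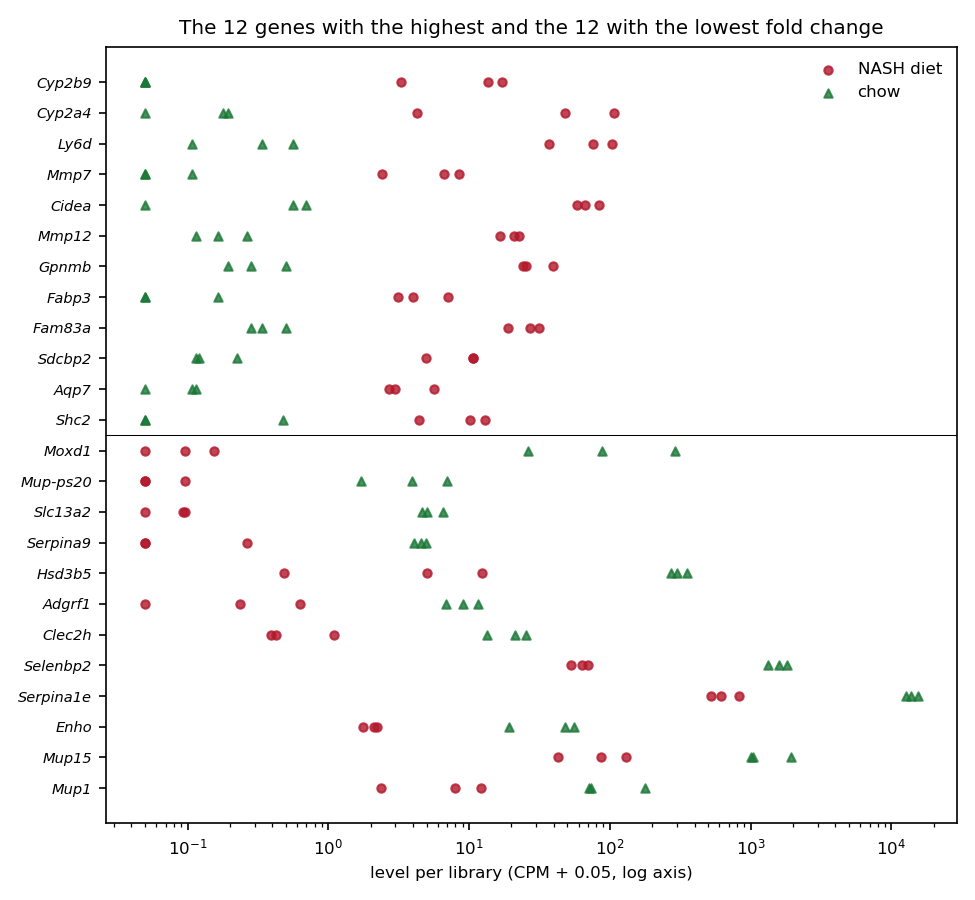
Level of 24 genes in each library (x axis, CPM + 0.05, log scale), with 3 NASH diet libraries (red circles) and 3 chow libraries (green triangles) per gene. The upper block shows genes with the greatest rise and the lower block those with the greatest fall, and in every gene the groups are separate.

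At the other end, Moxd1, a monooxygenase-like enzyme of the secretory pathway, stood at 290.2, 26.1 and 87.97 CPM on chow and had 3 counts in all NASH libraries together, against 6739 on chow, a ratio of 3064 with a counting interval of 1048 to 14859. The chow libraries themselves spread widely for Moxd1, with library 1 far above library 2. Slc13a2, a citrate and succinate transporter, stood at 4.99, 6.45 and 4.55 CPM on chow and had 2 counts in the NASH libraries, a ratio of 168 (46.1 to 1399). Hsd3b5, a male-specific steroid reductase, fell from 298, 272 and 353 to 0.431, 4.99 and 12.3 CPM, a log2 fold change of -5.72 ± 0.78 (edgeR adjusted p = 0.00103). Selenbp2, a selenium-binding protein of male liver, fell from 1814, 1332 and 1602 to 53.00, 70.4 and 62.98 CPM. Enho, which encodes the secreted peptide adropin, fell from 55.2, 19.1 and 47.6 to 2.15, 2.05 and 1.72 CPM, and Clec2h, a lectin of the natural killer receptor ligand family, from 25.3, 13.4 and 21.03 to 0.345, 0.373 and 1.05 CPM. The NASH libraries lay within a narrow range for Enho and Selenbp2, but ran from 0.431 to 12.3 CPM for Hsd3b5.

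Among genes of amino acid breakdown and the urea cycle, lower calls outnumbered higher ones. Of 45 genes tested 21 fell, 1 rose and 23 were not called, and the median log2 fold change was -0.51, beside -0.01 for all genes. Of the urea cycle, Otc, the ornithine transcarbamylase, fell from 494, 528 and 614 to 255, 304 and 257 CPM (edgeR adjusted p = 0.002496), Ass1, the argininosuccinate synthase, from 2736, 2796 and 2744 to 1278, 1548 and 1306 CPM, and Cps1, which makes carbamoyl phosphate, from 5649, 5329.7 and 4335 to 1946, 2617 and 2988 CPM. Gls2, the liver glutaminase, fell from 411, 435 and 427 to 177, 205 and 203 CPM, with all 3 NASH libraries near the same level. The only member that rose was Gpt2, a mitochondrial alanine aminotransferase, from 552, 557 and 469 to 923, 950.1 and 928 CPM (edgeR adjusted p = 0.005402). The 21 lower calls were 13 without chow library 1, 11 without NASH library 1 and 11 without NASH library 2, and scaling by library totals alone gave 2 higher and 12 lower.

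The direction of one-carbon and methionine metabolism as a group depended on the scaling. Of 35 genes tested 10 fell and 4 rose with TMM factors (median -0.06), but scaling by library totals alone gave 9 higher and 6 lower (median 0.20). Gnmt, which uses up S-adenosylmethionine, fell from 1759, 1376 and 1837 to 474, 541 and 646 CPM (log2 fold change -1.58 ± 0.19, edgeR adjusted p = 0.0005602). Aldh1l1, the cytosolic formyltetrahydrofolate dehydrogenase, fell from 1605, 1527 and 1421 to 546, 655 and 591 CPM. The folate gene Mthfd1l of mitochondria rose instead, from 0.05801, 0.645 and 0.321 to 9.78, 7.23 and 3.08 CPM, as did Psat1 of serine synthesis, from 1.33, 0.645 and 0.513 to 4.74, 5.36 and 3.55 CPM, and Gpx3, the plasma glutathione peroxidase, from 5.63, 5.59 and 5.07 to 21.3, 31.4 and 15.6 CPM. In each of these 3 genes NASH library 3 held the least of the NASH libraries and still lay above all chow libraries. Of 22 genes of tryptophan and NAD metabolism 8 fell and 2 rose (median -0.34). Aox3, an aldehyde oxidase that also acts on nicotinamide metabolites, fell from 1147, 1389 and 1039 to 292, 294 and 322 CPM, a log2 fold change of -1.98 ± 0.17 (edgeR adjusted p = 0.000121). Ido2, a tryptophan dioxygenase, had a log2 fold change of -1.31 ± 0.14 and Acmsd, which diverts the pathway away from NAD, of -1.68 ± 0.25. Without single libraries the lower calls were 6 without NASH library 1 and 6 without NASH library 2 for one-carbon genes, and 5 without chow library 1, 4 without NASH library 1 and 5 without NASH library 2 for tryptophan genes, with higher calls of 0 without chow library 1, 1 without NASH library 1 and 1 without NASH library 2. Scaling by library totals alone gave 2 higher and 5 lower for the tryptophan list.

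Genes of sugar metabolism moved in both directions. Of 39 genes of glycolysis, gluconeogenesis and glycogen 10 rose and 2 fell (median 0.23). Pkm, the pyruvate kinase of most tissues other than liver, rose from 13.2, 15.9 and 15.6 to 43.2, 42.5 and 32.9 CPM, by 1.41 ± 0.17 on the log2 scale (edgeR adjusted p = 0.000547). The platelet-type phosphofructokinase Pfkp rose from 2.15, 1.79 and 2.44 to 9.996, 6.99 and 7.11 CPM. The glycogen-targeting subunits of protein phosphatase 1 moved in opposite directions. Ppp1r3g rose from 0.464, 2.72 and 2.31 to 62.6, 15.7 and 13.3 CPM and Ppp1r3c fell from 47.3, 54.8 and 54.6 to 10.8, 22.98 and 28.2 CPM, with NASH library 1 the most distant from chow in both. Of 18 genes of fructose and sugar handling, G6pdx, the entry to the pentose phosphate pathway, and Txnip, which is induced by glucose, rose, and the fructose transporter Slc2a5 and the sugar-responsive factor Mlxipl fell. Slc2a5 fell from 11.5, 9.53 and 7.05 to 4.48, 2.94 and 4.49 CPM. The call of Mlxipl was lost under 7 and that of Txnip under 2 of 12 alternatives. Without chow library 1 the 10 higher calls of the glycolysis list were 6, and with libraries scaled by their totals alone that list gave 17 higher and 2 lower and the fructose list 8 higher and 1 lower.

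Membrane lipid genes rose more often than they fell, with 14 higher and 2 lower of 49 phospholipid and sphingolipid genes (median 0.40). Pla2g7, a phospholipase of macrophages that cleaves platelet-activating factor, rose from 1.74, 1.36 and 2.31 to 10.6, 8.34 and 9.303 CPM, and Pld4, an endolysosomal nuclease of immune cells that carries a phospholipase D name, from 4.64, 4.799 and 5.32 to 15.9, 10.5 and 17.04 CPM. Pla2g6, a calcium-independent phospholipase, rose from 39.2, 46.8 and 47.4 to 98.3, 86.3 and 78.97 CPM. Sgms2, a sphingomyelin synthase, fell from 92.3, 85.5 and 80.1 to 45.7, 43.3 and 59.9 CPM, and the other lower member, Gm2a, lost its call under 5 alternatives. Peroxisome genes were divided, with 7 higher and 6 lower of 46 (median -0.04). The fatty acid oxidation members rose, among them Ehhadh, the bifunctional enzyme, from 219.7, 323 and 318 to 808, 793 and 1800.1 CPM (log2 fold change 1.98 ± 0.32, edgeR adjusted p = 0.002496), the transporter Abcd2 from 5.22, 7.74 and 13.7 to 34.6, 33.6 and 40.1 CPM and the carnitine acetyltransferase Crat from 29.4, 48.6 and 38.2 to 123, 117 and 198 CPM. Pex11a, which drives peroxisome division, rose from 64.2, 109 and 105 to 239.9, 229 and 259 CPM. Pipox, which oxidises sarcosine and pipecolate, fell from 280.0, 261 and 301 to 120.2, 143 and 148 CPM, and Pecr, a trans-enoyl-CoA reductase, from 204, 177 and 236 to 86.6, 95.6 and 102 CPM. NASH library 3 was the highest for Ehhadh and Crat, unlike for the epithelial genes above. Without NASH library 1 the 6 lower peroxisome calls were 2, and with libraries scaled by their totals alone the list gave 15 higher and 4 lower and a median of 0.21.

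Lower calls outnumbered higher ones in several enzyme families of drug and steroid metabolism. Of 42 genes of cytochrome P450 families 1 to 3, 20 fell and 5 rose (median -0.70). Cyp1a2, which oxidises caffeine and many drugs, fell from 667, 782 and 639.9 to 227, 245 and 237 CPM, a log2 fold change of -1.56 ± 0.16 (edgeR adjusted p = 0.000266), Cyp3a59 from 67.8, 68.3 and 66.6 to 19.6, 15.7 and 24.1 CPM, and the fatty acid hydroxylase gene Cyp2u1 from 36.1, 28.7 and 32.8 to 9.22, 11.7 and 14.3 CPM. The members that rose include 3 genes of subfamilies with sex-biased members besides Cyp1b1 and Cyp2c38, namely Cyp2b9, Cyp2a4 and Cyp2a22. Cyp2a4, a steroid 15-alpha-hydroxylase of female liver, stood at 106, 48.01 and 4.23 CPM on the NASH diet and 0, 0.143 and 0.128 CPM on chow, with NASH library 3 far below the other NASH libraries, and its call was lost under 1 alternative. Cyp2a22 rose from 0.05801, 1.86 and 1.22 to 37.7, 29.6 and 23.7 CPM. As in the Mup family, reads shared within the Cyp2a and Cyp2b families may be split. Leaving out single libraries gave 12 without chow library 3, 13 without NASH library 1 and 9 without NASH library 2 for the lower P450 calls.

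Of 14 carboxylesterases, which hydrolyse esters of drugs and lipids, 7 fell and 0 rose (median -0.76). Those that fell were Ces1b, Ces1c, Ces2a, Ces2b, Ces3a, Ces3b and Ces4a. Ces3b fell from 786, 630.1 and 704 to 93.2, 117 and 190.0 CPM, a log2 fold change of -2.40 ± 0.26 (edgeR adjusted p = 0.000337), and Ces2a from 389, 589 and 533 to 95.95, 118 and 140.0 CPM. Conjugating enzymes fell in 12 of 50 cases and rose in 2 (median -0.31). Gstp1, the glutathione transferase that is male-biased in mouse liver, fell from 1685, 1263 and 1776 to 389, 413 and 362 CPM, Sult5a1, a sulfotransferase, from 24.2, 17.7 and 15.6 to 2.59, 3.17 and 2.51 CPM, and the glucuronosyltransferase Ugt2b1 from 989, 983 and 885 to 310.4, 342 and 416 CPM. Gsta1, an alpha-class glutathione transferase, rose from 0.928, 2.58 and 3.08 to 25.4, 16.2 and 7.997 CPM (edgeR adjusted p = 0.00255), and Mgst3 also rose, with groups that overlapped. Alcohol and aldehyde dehydrogenases and aldo-keto reductases fell in 12 of 32 cases and rose in 3, with a median of -0.24 that became 0.01 under scaling by library totals alone, when the list gave 5 higher and 5 lower. Akr1d1, the steroid 5-beta-reductase of bile acid synthesis, fell from 186, 177 and 181 to 81.4, 78.7 and 84.04 CPM and Adh4 from 169.8, 163 and 169 to 67.7, 71.6 and 83.6 CPM. Without single libraries the lower dehydrogenase calls were 7 without chow library 1, 5 without NASH library 1 and 6 without NASH library 2, the higher ones 1 without NASH library 2, the lower conjugation calls 7 without NASH library 2, and the higher conjugation calls 1 without chow library 1, 1 without chow library 2, 1 without NASH library 1, 1 without NASH library 2 and 5 without NASH library 3.

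Genes of plasma proteins were called in both directions, more often lower. Of 63 transport, complement and coagulation genes tested 27 fell, 11 rose and 25 were not called (median -0.50), and their CPM summed to 90105 to 108226 on the NASH diet and 138874 to 162441 on chow. The CPM of all tested genes summed to 883134 to 940425 and 1041860 to 1140390, so part of this lower sum is shared by all genes. C9, of the terminal complement pore, fell from 885, 813 and 889 to 297, 330.2 and 307 CPM, by -1.47 ± 0.15 (edgeR adjusted p = 0.000291). C8b, its partner in the pore, fell from 623, 528 and 487 to 53.4, 81.5 and 141 CPM, with NASH library 3 nearest to chow. F11, a clotting factor of the intrinsic pathway, fell from 168, 120.5 and 121 to 33.5, 39.7 and 44.8 CPM. Among the members that rose were C1qb and C1qc, complement chains known from macrophages, from 20.1, 25.7 and 25.01 to 89.9, 87.96 and 73.1 CPM and from 17.1, 20.6 and 25.1 to 64.9, 62.7 and 54.5 CPM. In bulk liver fewer hepatocytes and less of a transcript per hepatocyte cannot be told apart. The lower calls were 13 without NASH library 1 and 15 without NASH library 2, the higher ones 7 without chow library 1, 7 without NASH library 1 and 7 without NASH library 2, and scaling by library totals alone gave 12 higher and 16 lower.

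Hormone axes and secreted regulators moved in both directions. Of 35 growth hormone, insulin and leptin signalling genes 4 rose and 5 fell, and of 30 secreted metabolic regulators 9 rose and 5 fell. Lepr, the leptin receptor, rose from 1.68, 2.79 and 1.86 to 12.7, 25.9 and 27.9 CPM, by 3.40 ± 0.34 (edgeR adjusted p = 0.000254), with NASH library 1 lower than the other NASH libraries. Igfbp1, an insulin-repressed binding protein of insulin-like growth factors, rose from 78.4, 68.5 and 117 to 221, 316 and 256 CPM, while Igfals, which holds those factors in the circulating complex, fell from 122, 125 and 123 to 38.8, 49.2 and 55.7 CPM. The epidermal growth factor receptor Egfr fell from 708, 587 and 464 to 252, 352 and 273 CPM and Lifr, the receptor of leukaemia inhibitory factor, from 561, 488 and 429 to 102, 105 and 111 CPM. Fgf21, a hepatokine of fasting and metabolic stress, rose from 0.348, 1.79 and 2.18 to 12.8, 15.6 and 19.4 CPM (log2 fold change 3.49 ± 0.45), and lipoprotein lipase, Lpl, from 33.2, 30.7 and 28.1 to 102, 149.6 and 145 CPM. Fetub, a hepatocyte fetuin, fell from 544, 517 and 656 to 222, 289 and 322 CPM. Without single libraries the lower signalling calls were 3 without chow library 1, 2 without NASH library 1 and 3 without NASH library 3, the higher ones 2 without chow library 1, and the lower regulator calls 2 without NASH library 1. Scaling by library totals alone gave 8 higher and 2 lower for the signalling list, whose median moved from -0.09 to 0.16.

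Hepatocyte transcription factors were called about as often as all genes. Of 49 liver transcription factors and nuclear receptors 5 rose and 4 fell (18.4% called, beside 17.0% of all genes), and the median of -0.21 became 0.04 under scaling by library totals alone, with 9 higher and 0 lower. Hnf4a stood at 451, 613 and 755 CPM against 728, 801 and 606 CPM, with overlapping groups and an edgeR adjusted p of 0.513. Pparg, the adipogenic nuclear receptor, rose from 7.599, 13.3 and 13.5 to 29.4, 27.3 and 20.2 CPM (edgeR adjusted p = 0.00881). The 4 lower members, Nr5a2, Foxa1, Tcf7l2 and Mlxipl, each lost their call under 3 or more alternatives. Leaving out single libraries gave 8 without chow library 3, 0 without NASH library 1 and 0 without NASH library 2 for the lower calls and 3 without chow library 1, 3 without NASH library 1 and 2 without NASH library 2 for the higher ones.

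Across all 898 transcription factors tested 56 rose and 30 fell, 9.58% in all, beside 17.0% of all genes. By family, of 21 ETS factors 9 rose and 0 fell (42.9% called). Of 39 basic leucine zipper (bZIP) factors 9 rose and 0 fell (23.1% called, not far from all genes). Of 413 C2H2 zinc finger factors 10 rose and 9 fell (4.60% called). No test of the difference between families was made. The factors named in this paragraph other than Hes6 were chosen after their values were seen. Spi1, the ETS factor PU.1 of myeloid cells, stood at 13.6, 11.7 and 15.1 CPM on the NASH diet and 3.19, 3.37 and 3.08 CPM on chow, a rise of 2.07 ± 0.20 (edgeR adjusted p = 0.000233). Ehf, an epithelial ETS factor, rose from 0.696, 0.501 and 0.705 to 3.19, 6.11 and 3.55 CPM. The other ETS genes that rose were Elf4, Elf3, Spic, Elk3, Fli1, Ets2 and Ets1. Among bZIP factors Atf3, a stress-induced factor, rose from 0.522, 1.22 and 0.321 to 9.09, 8.53 and 8.94 CPM (edgeR adjusted p = 0.000328), and Jun, a subunit of AP-1, from 33.3, 51.1 and 52.6 to 98.2, 88.7 and 92.4 CPM. Its usual partner Fos stood at 9.57, 8.204 and 13.01 against 10.7, 6.805 and 7.31 CPM and was not called (edgeR adjusted p = 0.4602). Of the NF-kappa-B family, Relb rose from 1.39, 1.58 and 1.67 to 5.69, 6.899 and 6.69 CPM and Nfkb2 from 8.47, 7.66 and 8.59 to 17.6, 19.9 and 15.4 CPM. Among factors that fell were Foxq1, a forkhead factor, from 84.6, 32.9 and 60.6 to 5.39, 12.03 and 8.73 CPM, Hhex, a homeobox factor of liver development, from 159, 143 and 167 to 32.4, 51.8 and 53.9 CPM, and Hes6 from 81.6, 74.9 and 91.5 to 41.2, 37.6 and 25.98 CPM. The 9 higher ETS calls were 5 without NASH library 1. The 9 higher bZIP calls were 3 without NASH library 1, 5 without NASH library 2 and 6 without chow library 1.

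Promoters of 4 genes show the letters counted below, with 2 genes that rose and hold the AP-1 motif (TGACTCA or its reverse complement) and 2 that fell and hold the CCAAT box. Each is the RefSeq promoter window of the gene in GRCm38.p6 (300 bases around the gene start), printed along the gene's own strand, with the motif on either strand in capitals. Anxa2 lies at chr9:69453433-69453732, plus strand, Sprr1a at chr3:92485832-92486131, minus strand, Gnmt at chr17:46729116-46729415, minus strand, and C9 at chr15:6445096-6445395, plus strand.
Anxa2: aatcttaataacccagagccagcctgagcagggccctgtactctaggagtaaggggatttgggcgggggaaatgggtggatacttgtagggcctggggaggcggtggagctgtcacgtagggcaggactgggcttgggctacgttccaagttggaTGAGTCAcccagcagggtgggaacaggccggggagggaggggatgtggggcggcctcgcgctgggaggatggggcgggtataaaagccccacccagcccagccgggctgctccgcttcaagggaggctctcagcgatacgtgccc
Sprr1a: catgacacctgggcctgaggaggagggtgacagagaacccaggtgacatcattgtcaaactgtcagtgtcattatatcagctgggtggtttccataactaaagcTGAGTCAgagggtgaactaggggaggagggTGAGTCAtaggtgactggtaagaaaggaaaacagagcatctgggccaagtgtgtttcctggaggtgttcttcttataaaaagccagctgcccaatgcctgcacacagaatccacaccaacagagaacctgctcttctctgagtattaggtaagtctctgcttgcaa
Gnmt: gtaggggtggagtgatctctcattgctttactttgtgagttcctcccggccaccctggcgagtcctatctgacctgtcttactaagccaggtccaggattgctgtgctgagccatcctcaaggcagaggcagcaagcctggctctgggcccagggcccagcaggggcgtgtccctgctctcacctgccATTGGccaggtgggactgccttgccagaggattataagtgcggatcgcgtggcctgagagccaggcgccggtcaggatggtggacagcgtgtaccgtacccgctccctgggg
C9: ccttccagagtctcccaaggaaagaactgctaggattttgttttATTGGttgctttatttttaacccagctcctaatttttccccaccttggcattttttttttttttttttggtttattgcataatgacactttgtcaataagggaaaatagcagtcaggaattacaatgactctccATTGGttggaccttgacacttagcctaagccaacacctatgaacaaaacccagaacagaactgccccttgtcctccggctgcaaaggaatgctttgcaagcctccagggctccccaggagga

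Counted from the gene start, the AP-1 match in Anxa2 starts at -95 and those in Sprr1a at -146 and -116. The CCAAT box of Gnmt starts at -62 and those of C9 at -206 and -72. Of the tested genes 10485 had a window. The AP-1 motif was in 6.80% of windows of higher genes, 4.68% of lower genes, 3.34% of genes not called and 5.17% of all 27025 windows. The CCAAT box was in 34.8% of windows of higher genes, 48.0% of lower genes, 38.7% of genes not called and 37.9% of all windows. The ETS core GGAAGT was in 24.3%, 20.6% and 29.6%, and in 24.1% of all windows. These shares describe letters in a window and no binding was measured. The median base composition differed too, with 59.3% G and C in windows of higher genes, 56.0% in those of lower genes and 60.7% in those of genes not called.

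Few ribosomal protein, proteasome and autophagy genes were called. Of 83 cytosolic ribosomal protein genes 3 fell, of 77 mitochondrial ribosomal protein genes 2 fell, and of 47 proteasome subunits none was called in edgeR, against 17.0% of all genes. Most of their log2 fold changes were below 0, namely 79, 66 and 34 in that order, with medians of -0.29, -0.21 and -0.15. Scaling by library totals alone gave medians of -0.03, 0.04 and 0.11. Without chow library 3 the medians were -0.10, -0.03 and 0.01. The calls of Rpl7a, Rpl30, Rpl35a, Mrps22 and Mrps27 were each lost under at least 2 alternatives. Of 45 autophagy genes, Plin2, the lipid droplet coat protein counted there as a target of lipophagy, rose from 247, 398 and 451 to 934, 984 and 1078 CPM, and Atg101 and Ulk2 fell, with calls lost under 6 and 8 alternatives. Of 41 chaperone genes 8 fell and 2 rose, 24.4% called beside 17.0% of all genes. Those that fell include folding factors of the endoplasmic reticulum, such as Calr (calreticulin), from 927, 1058 and 960.1 to 532, 593 and 359 CPM, Pdia6, a disulfide isomerase, from 369.5, 355 and 418 to 194, 232 and 125 CPM, and Hsp90b1 (endoplasmin), from 899.8, 874 and 897 to 459, 601 and 374 CPM. NASH library 3 held the least of all 3. Hspb1, a small cytosolic heat shock protein, rose from 22.3, 36.2 and 41.6 to 79.2, 107 and 59.7 CPM (edgeR adjusted p = 0.00746). Leaving out single libraries gave 5 without chow library 2, 5 without chow library 3, 3 without NASH library 1 and 5 without NASH library 3 for the lower chaperone calls and 1 without chow library 1, 1 without chow library 2, 1 without chow library 3 and 1 without NASH library 2 for the higher ones. The chaperone median of -0.08 became 0.18 under scaling by library totals alone, when the list gave 5 higher and 3 lower. The lower ribosomal calls were 1 without chow library 1, 9 without chow library 2, 1 without chow library 3, 0 without NASH library 1 and 1 without NASH library 2, the lower mitochondrial ribosomal calls 5 without chow library 2, 1 without chow library 3, 0 without NASH library 1, 1 without NASH library 2 and 1 without NASH library 3, and the lower autophagy calls 0 without chow library 1, 1 without chow library 2, 0 without NASH library 1, 0 without NASH library 2 and 1 without NASH library 3.

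Membrane transporters moved in both directions, with 42 higher and 26 lower of 233 solute carriers (median 0.08). The monocarboxylate carriers Slc16a5 and Slc16a7 rose, from 4.99, 5.59 and 5.51 to 35.6, 49.8 and 28.5 CPM and from 41.1, 58.9 and 51.6 to 149, 133 and 134 CPM (edgeR adjusted p = 7.64e-05 and 0.000409). The phosphate carrier Slc20a1 rose from 18.97, 28.1 and 19.2 to 82.8, 67.2 and 62.4 CPM. The genes Slc22a28 and Slc22a30 of the organic anion carrier family fell, from 20.1, 26.6 and 27.1 to 2.84, 4.801 and 4.34 CPM and from 269, 267 and 260.2 to 93.9, 82.1 and 82.6 CPM. Haem, iron and metal genes were called about as often as all genes. Of 41 tested 5 rose and 3 fell (median -0.10), 19.5% called beside 17.0%. Scaling by library totals alone gave 7 higher and 1 lower and a median of 0.15. The higher count was 3 without chow library 2 and 3 without NASH library 2, the lower 1 without NASH library 1. Slc11a1, the phagosomal metal carrier of macrophages, rose from 4.41, 5.301 and 4.62 to 16.8, 12.8 and 14.8 CPM. Hmox1, the haem oxygenase, rose from 13.98, 14.5 and 13.6 to 29.1, 38.97 and 39.4 CPM. Alas2, the erythroid haem synthesis enzyme, fell from 127, 144 and 144 to 68.2, 74.4 and 70.5 CPM. Without single libraries the higher carrier calls were 27 without chow library 1 and 26 without NASH library 1, the lower ones 16 without chow library 1, 17 without chow library 2, 12 without NASH library 1 and 15 without NASH library 2, and scaling by library totals alone gave 65 higher and 13 lower.

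Calls among annexin, S100 and keratin genes were all higher. Of 18 annexin and S100 genes 10 rose and 0 fell (median 1.22), and of 7 keratins 5 rose and 0 fell (median 0.88). The count filter left out 5 further annexin and S100 genes and 10 further keratins. Genes near 0 on chow could pass it only through the NASH libraries, so these counts and medians can lean to higher. Anxa2, a membrane-binding protein of regenerating liver, stood at 122, 119.7 and 62.5 CPM on the NASH diet and 7.48, 12.4 and 13.02 CPM on chow, a rise of 3.21 ± 0.30 (edgeR adjusted p = 0.000163). Anxa5, which binds phosphatidylserine, rose from 59.6, 74.1 and 88.9 to 357, 322 and 216 CPM, and S100a11 from 3.71, 4.08 and 5.07 to 43.3, 42.5 and 16.05 CPM, a rise of 2.98 ± 0.36. In all 3 genes NASH library 3 was lowest among the NASH libraries and above every chow library. Krt23, a keratin induced in injured liver, rose from 0.986, 1.29 and 1.22 to 3.58, 7.51 and 3.397 CPM. The keratin calls were 1 without chow library 1, 2 without chow library 2, 3 without NASH library 1 and 2 without NASH library 2.

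Of 55 actin and tubulin cytoskeleton genes 22 rose and 2 fell (median 0.48). Actg1, the cytoplasmic gamma actin, rose from 59.98, 64.3 and 83.7 to 185, 239 and 191 CPM, and Msn (moesin) from 15.6, 21.8 and 14.2 to 57.3, 50.6 and 46.99 CPM. Tuba4a fell from 149, 212 and 253 to 83.2, 74.8 and 95.2 CPM. Of 40 junction genes 7 rose and 3 fell, with 11 higher and 1 lower under scaling by library totals alone. Gjb1, the main gap junction protein of hepatocytes, fell from 776, 735 and 808 to 346, 379.6 and 436 CPM (edgeR adjusted p = 0.00234), and the lower calls of Ocln and Cdh1 were lost under 5 and 4 alternatives. Of 31 integrins and matrix receptors 16 rose and 2 fell (median 0.90). Of the integrins known from leukocytes, Itgax rose from 0.5801, 1.07 and 0.834 to 9.91, 9.14 and 9.67 CPM and Itgb2 from 3.25, 4.44 and 4.62 to 23.8, 15.2 and 21.1 CPM, while the syndecan Sdc2 fell from 201, 217 and 243 to 105, 123 and 139.8 CPM. Without NASH library 2 the higher cytoskeleton calls were 13. The lower cytoskeleton count was 1 with any single library left out. Without single libraries the higher junction calls were 4 without NASH library 1 and 4 without NASH library 2, the lower ones 1 without chow library 1, 1 without NASH library 1 and 5 without NASH library 3, and the lower integrin calls 1 without chow library 1, 1 without chow library 3, 1 without NASH library 1 and 1 without NASH library 2.

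Genes known from fetal liver, liver progenitors or liver tumours rose in 21 of 38 cases and fell in 1 (median 1.44), and their CPM summed to 621 to 1051 on the NASH diet and 257 to 324 on chow. Besides Ly6d, Mmp7 and S100a11 above, the list includes Spp1, Cd24a, Golm1 and Epcam, which rose by 1.86 ± 0.29, 2.28 ± 0.33, 1.44 ± 0.27 and 1.82 ± 0.45 on the log2 scale. Myc was the member that fell, with a call lost under 5 alternatives. The count filter left out 13 further genes of this list, so its counts and median can lean to higher. Of 48 Hippo, Notch, Hedgehog and Wnt pathway genes 8 rose and 2 fell, 20.8% called beside 17.0% of all genes, and scaling by library totals alone gave 13 higher and 2 lower. Axl, a receptor tyrosine kinase counted among the targets of the Hippo effector YAP, rose from 11.8, 16.3 and 14.1 to 60.7, 46.7 and 54.3 CPM (edgeR adjusted p = 0.000143), Tead1, the DNA-binding partner of YAP, from 7.37, 10.7 and 7.12 to 35.98, 34.4 and 19.1 CPM, and Dkk3 from 1.39, 1.72 and 1.35 to 5.52, 8.204 and 7.47 CPM. Lgr4, the R-spondin receptor of the Wnt pathway, fell from 88.5, 96.99 and 72.5 to 39.6, 42.4 and 51.7 CPM. Of 62 cell death and TNF receptor family genes 13 rose and 1 fell, 22.6% called, and that scaling gave 24 higher and 0 lower. Tnfrsf12a, the receptor of TWEAK, rose from 5.57, 5.16 and 6.41 to 17.8, 24.1 and 14.2 CPM, Casp4, the caspase of the noncanonical inflammasome, from 0.638, 0.716 and 0.513 to 3.32, 3.78 and 2.35 CPM, and Pmaip1 (Noxa), from 0.2900, 0.573 and 0.577 to 2.801, 2.42 and 2.67 CPM. The lower count of 2 in the list of Hippo, Notch, Hedgehog and Wnt genes was 4 without NASH library 3.

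**Figure D4:**
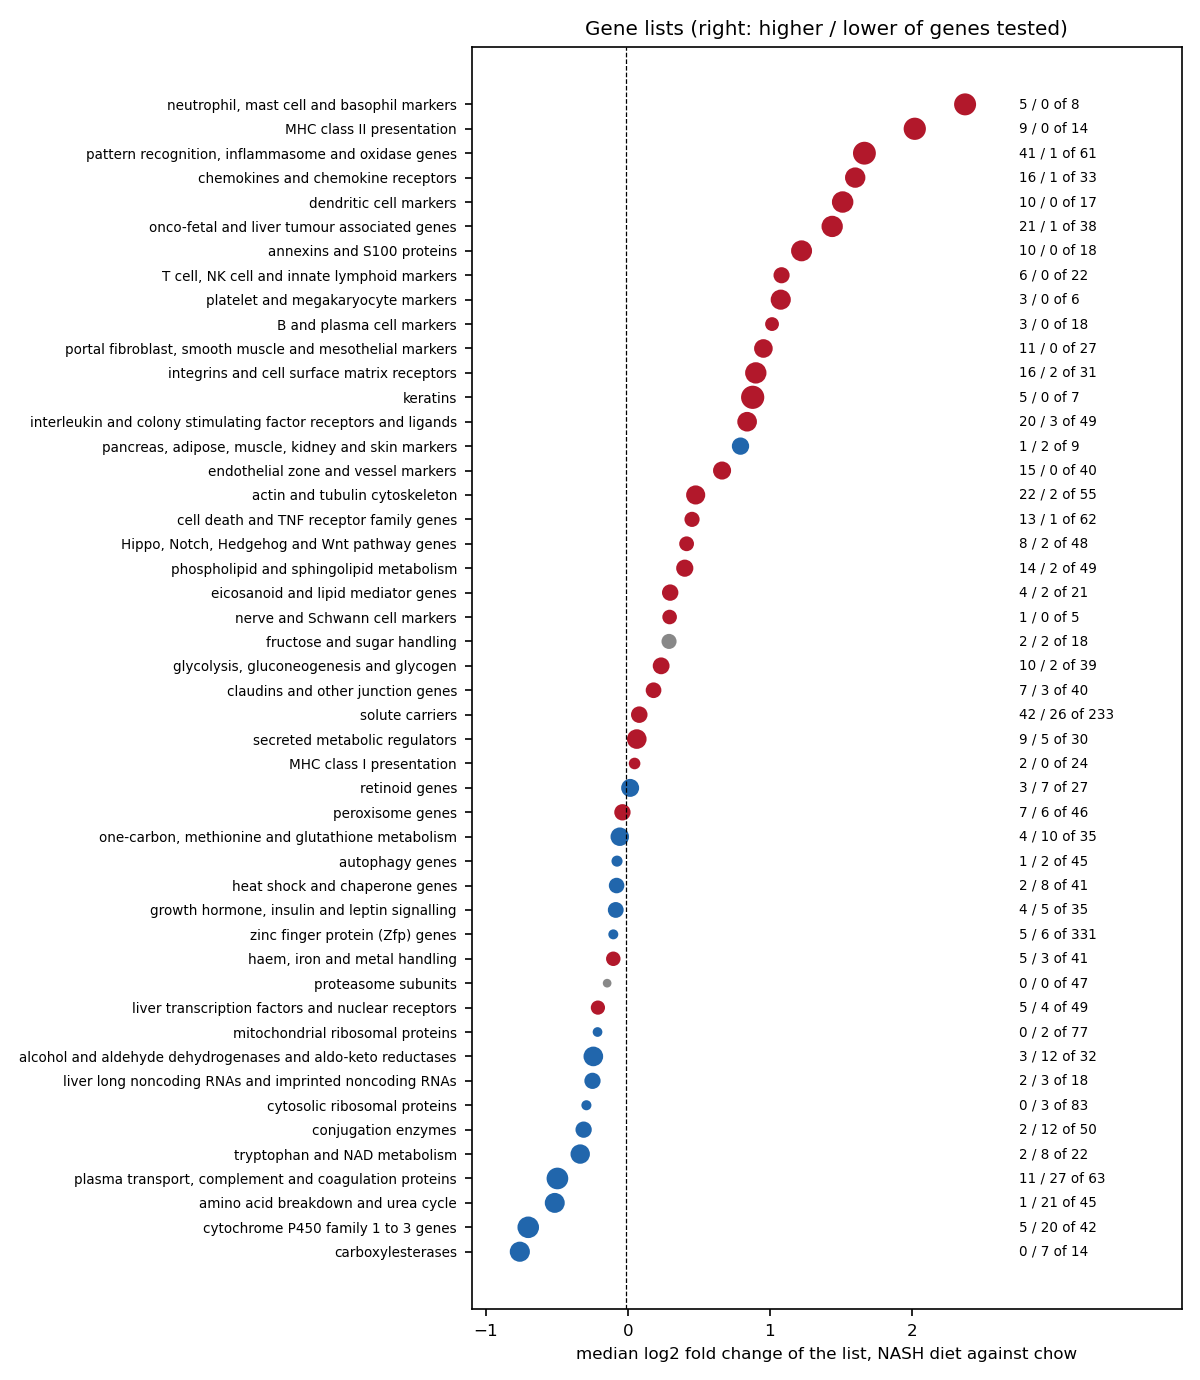
Median log2 fold change, NASH diet against chow (x axis), of each gene list with at least 5 tested genes. Point colour marks lists with more higher (red) or more lower (blue) calls or equal numbers (grey), point area grows with the percent called, the dashed line is the median of all genes tested (-0.01), and the numbers are genes higher and lower of those tested. The dendritic cell, chemokine, pattern recognition and MHC class II lists lie between 1.51 and 2.02, and the carboxylesterases lie lowest, at -0.76.

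Most tested genes of antigen presentation by MHC class II rose, while few of class I were called. Of 14 class II genes 9 rose and 0 fell (median 2.02), and of 24 class I genes 2 rose and 0 fell (median 0.05). H2-Aa, an alpha chain of class II, stood at 101, 113 and 74.3 CPM on the NASH diet and 18.7, 17.5 and 20.5 CPM on chow, a rise of 2.35 ± 0.18 (edgeR adjusted p = 6.58e-05), and Cd74, the invariant chain, at 235, 259 and 183 against 45.1, 56.5 and 62.7 CPM. Class II genes are expressed by dendritic cells, macrophages and B cells. The class I calls, H2-Q6 and H2-D1, were lost under 1 and 6 alternatives, and the class I count was 1 without chow library 1, 1 without chow library 2, 0 without NASH library 1, 1 without NASH library 2 and 1 without NASH library 3. Of 17 dendritic cell markers 10 rose and 0 fell (median 1.51). Sirpa, an inhibitory receptor of myeloid cells, rose from 9.75, 13.04 and 9.75 to 56.7, 48.99 and 48.3 CPM and Irf8, a factor of dendritic cell development, from 6.15, 3.796 and 6.03 to 16.2, 15.1 and 14.5 CPM. The dendritic count was 5 without NASH library 1.

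Innate sensing genes had the greatest share called of the lists with over 20 tested genes. Of 61 pattern recognition, inflammasome and oxidase genes 41 rose and 1 fell (median 1.67), 68.9% called beside 17.0% of all genes, and the higher count stayed between 34 and 40 with single libraries left out. Clec7a (dectin-1), a receptor of fungal glucans, rose from 2.44, 1.79 and 1.99 to 30.6, 22.6 and 22.9 CPM, by 3.60 ± 0.22 on the log2 scale (edgeR adjusted p = 1.66e-05). Cybb, the catalytic subunit of the phagocyte NADPH oxidase, rose from 5.105, 7.95 and 7.89 to 40.9, 30.7 and 28.1 CPM, and Tyrobp, an adaptor of myeloid receptors, from 3.25, 3.08 and 4.81 to 18.8, 17.3 and 13.7 CPM. Toll-like receptor genes that rose were Tlr1, Tlr2, Tlr3, Tlr4, Tlr5, Tlr7, Tlr8, Tlr12 and Tlr13. Il18, a cytokine that hepatic inflammasomes release, was the member that fell, with a call lost under 5 alternatives.

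Of 33 chemokines and chemokine receptors 16 rose and 1 fell (median 1.60). The count filter left out 18 further genes of this list and 25 of the interleukin list below. Counts and medians of both lists can therefore lean to higher. Ccr2, the receptor that brings monocytes into tissue, rose from 1.798, 0.8595 and 0.513 to 11.03, 9.23 and 9.199 CPM (edgeR adjusted p = 0.000531) and Ccl6 from 2.67, 4.15 and 4.62 to 21.5, 18.2 and 16.3 CPM. Ccl9 fell by 0.83 on the log2 scale, with a call lost under 1 alternative. The summed CPM of the list was 418 to 512 on the NASH diet and 446 to 551 on chow. With TMM factors the CPM of all tested genes summed to 883134 to 940425 on the NASH diet and 1041860 to 1140390 on chow. The list's sums are therefore not shares of a library, and whether its share changed was not tested. Of 49 interleukin and colony stimulating factor genes 20 rose and 3 fell (median 0.84). Csf1r, the receptor that macrophages need, rose from 20.2, 28.3 and 24.9 to 86.5, 54.4 and 78.9 CPM and Csf2ra from 4.699, 3.58 and 3.59 to 14.2, 10.95 and 10.7 CPM. Without NASH library 1 the higher interleukin count was 13, and without chow library 3 the lower chemokine count was 3.

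Lymphocyte markers were low in all libraries. Of 48 T, NK and innate lymphoid markers listed 26 did not pass the count filter. Of the 22 tested 6 rose and 0 fell (median 1.08), 27.3% called beside 17.0% of all genes. Their summed CPM was 161 to 174 on the NASH diet and 135 to 161 on chow. The filter also left out 9 B and plasma cell markers and 17 neutrophil, mast cell and basophil markers. Markers near 0 on chow, such as Cd8a, Havcr2 and S100a9, could pass it only through the NASH libraries. Their direction was thus set by the filter, and the counts and medians of these lists lean to higher. Cd8a, the CD8 alpha chain, had 91 counts on the NASH diet and 3 on chow. The ratio was 22.2 with an exact 95% interval of 7.37 to 109.9 that covers counting error only. Havcr2 (Tim-3), a receptor of exhausted T cells and myeloid cells, rose from 0.116, 0.358 and 0.128 to 1.55, 1.398 and 1.36 CPM. Of 18 B and plasma cell markers 3 rose and 0 fell, 16.7% called beside 17.0% of all genes, with a summed CPM of 45.0 to 111 against 30.6 to 42.3, and Cd37 rose from 1.57, 1.504 and 1.795 to 4.48, 3.68 and 4.49 CPM. Of 30 neutrophil, mast cell and basophil markers listed 8 were tested and 5 of these rose, with a summed CPM of 58.0 to 194 against 11.7 to 35.3. S100a9, a calprotectin subunit, stood at 0.948, 1.72 and 0.889 CPM on the NASH diet and 0.174, 0 and 0.0641 CPM on chow, and Ear2, an eosinophil-associated ribonuclease also found in monocytes, at 7.28, 4.24 and 4.91 against 0.8701, 0.4298 and 1.54 CPM. Without single libraries the T and NK count (10 with scaling by library totals alone) was 3 without chow library 1, 3 without NASH library 1 and 3 without NASH library 2, the B cell count 1 without NASH library 1, and the neutrophil count 3 without chow library 3, 3 without NASH library 1 and 3 without NASH library 2.

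Among stromal cells, 15 of 40 endothelial markers rose and 0 fell (median 0.66), with a summed CPM of 1009.9 to 1132 on the NASH diet and 796 to 889 on chow. Vcam1, an adhesion molecule of activated endothelium and macrophages, rose from 7.42, 7.23 and 9.68 to 44.9, 46.2 and 38.7 CPM (edgeR adjusted p = 5.15e-05), and Pecam1, of all endothelium, from 12.01, 14.3 and 13.9 to 29.9, 27.3 and 23.9 CPM. Of 27 portal fibroblast, smooth muscle and mesothelial markers 11 rose and 0 fell (median 0.95). Lum (lumican) rose from 7.95, 5.66 and 7.95 to 24.2, 33.2 and 18.4 CPM, Gas6, the ligand of Axl, from 33.5, 35.3 and 36.4 to 102, 117 and 77.1 CPM, and Rgs5, of pericytes, from 19.6, 24.6 and 24.2 to 65.7, 55.3 and 44.5 CPM. Of 9 markers of pancreas, adipose tissue, muscle, kidney and skin tested, Cidea rose, and Cela1, a pancreatic elastase, and Adrb3, the beta-3 adrenergic receptor of fat cells, fell, from 37.9, 22.3 and 41.5 to 10.2, 13.1 and 7.47 CPM and from 22.7, 10.3 and 11.9 to 3.71, 4.52 and 4.34 CPM. Muscle markers varied between libraries of both groups without a call, such as Myh1 at 0, 2.56 and 11.9 CPM on the NASH diet and 0, 2.15 and 0.705 CPM on chow, and the list summed to 74.7 to 116 CPM against 44.6 to 62.4 CPM. The part of these markers in other results was not tested. The endothelial count was 8 without chow library 1 and 6 without NASH library 1.

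More long noncoding genes fell than rose, unlike protein-coding genes, although scaling by library totals alone turned that order around, with 55 higher and 45 lower. In the fit with TMM factors, of 868 long noncoding RNA genes 39 rose and 83 fell, of 582 pseudogenes 14 rose and 42 fell, and of 12707 protein-coding genes 1550 rose and 695 fell. Their lower count was 42 without chow library 1, 38 without NASH library 1 and 44 without NASH library 2, and their higher count was 24 without chow library 1, 25 without NASH library 1 and 26 without NASH library 2. Of the 39 that rose 21 lay within 10000 bases of a tested protein-coding gene, of which 11 rose and 0 fell. Of the 83 that fell 62 did, and of their coding neighbours 17 fell and 1 rose. Of the 746 not called 588 did, and of their coding neighbours 42 rose and 45 fell. Of the 21 and 62, 14 and 40 overlapped the neighbour, and without the strand setting of the counting, reads of such pairs cannot be told apart. The long noncoding gene B430212C06Rik, which overlaps Cidea on the opposite strand, stood at 5.13, 4.24 and 4.34 CPM on the NASH diet and 0, 0.0716 and 0.192 CPM on chow. The long noncoding gene Gm15998, which overlaps Efna3 on the opposite strand, fell from 7.599, 3.796 and 6.16 to 0.862, 0.373 and 0.523 CPM. Away from coding genes, Gm19619, which lies 73840.0 bases from Btc, rose from 0.638, 1.43 and 1.35 to 18.1, 18.2 and 7.89 CPM (edgeR adjusted p = 0.000359). Gm36264 fell from 6.497, 4.87 and 6.86 to 0.215, 0.513 and 0.418 CPM and lies 5349 bases from Gtpbp4, which was not called (edgeR adjusted p = 0.424). Of 18 liver and imprinted noncoding RNAs tested 2 rose and 3 fell (median -0.25), and 15 log2 fold changes were below 0. The higher count was 1 without chow library 1, chow library 3 or NASH library 2, the lower 1 without chow library 1 or NASH library 2. Of the imprinted ones, Peg13 rose from 4.41, 5.01 and 4.49 to 8.96, 9.696 and 10.8 CPM. H19 rose by 3.00 on the log2 scale, with a call lost under 4 alternatives, and Meg3 stood at -1.04 and was not called.

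The NASH libraries were not equally far from chow. Among the 1607 higher genes, NASH library 3 was the nearest to chow for 809 (50.3%), NASH library 2 for 518 (32.2%) and NASH library 1 for 280 (17.4%). Among the 838 lower genes the counts were 425, 252 and 161. Among chow libraries, library 2 was the nearest to the NASH libraries for 694 of the higher and 372 of the lower genes. The order held for genes as different as S100a11, Mup7 and C8b named above, but Ehhadh and Crat were highest in NASH library 3, so no single order of the libraries fitted all programmes.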

How the data were processed

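Per the labels' protocols, column-purified liver RNA (1.3 µg) went into stranded mRNA libraries of the Illumina TruSeq kit. The deposited table held, per the file headers, whole-number counts per gene and library that the authors had not normalized, with 23962 genes of at least 2 counts each over the 6 libraries. The build was GRCm38 (mm10), per the submitters' processing notes. The aligner, the counter and its strand setting are named by no source used here. The NASH columns were tied to their libraries by their group codes in the labels. Date-like entries stood in place of 21 deposited symbols, which were looked up by gene identifier, and the authors' gene length served for levels per kilobase.

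Counts were filtered with filterByExpr (minimum count 10), scaled with TMM and tested with edgeR 4.0.16 in R 4.3.3 (quasi-likelihood, two-sided, 6 libraries, no covariate), and p-values were adjusted over the 14388 genes tested. On simulated counts for this comparison, with 14388 genes before a second pass of the filter, the fit recovered 49.5% of 97 genes changed 2-fold. It recovered 92.4% of 92 genes changed 4-fold. Changed genes that the second filter removed are not in these numbers. The simulation changed only 200 genes, as many up as down, whereas 2445 genes were called here, mostly higher. Its recovery therefore need not hold for the real comparison. DESeq2 1.42.0, limma 3.58.1 (voom), other scalings, no filter, a replicate block and leaving out each library made up the 12 alternatives. The labels give no date or batch. The sample records of the chow libraries are numbered in a block apart from those of the NASH libraries. Any batch between the groups could therefore not be told apart from diet.

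The 48 gene lists, all members and the promoter motifs were chosen with earlier results of these data known, and lists are described by counts and medians only. Listed genes near 0 on chow could pass the count filter only through the NASH libraries. Counts and medians of lists with many genes of low level can therefore lean to higher. Named genes are the 12 highest and 12 lowest fold changes, the 10 smallest p per direction, the 8 greatest gains and losses of CPM, up to 3 called genes per list and direction, the 8 highest genes with 0 counts in a group and the 8 long noncoding genes with the smallest p, some of them left out. The genes by fold change and by p per direction were drawn only from called genes with groups that do not overlap. These also needed a mean log2 CPM of at least 1 and a plain gene symbol. Genes outside that rule are marked, or are members of a list.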

Additional observations from a re-analysis of the deposited data

How the results depend on the processing

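The counts of 1607 higher and 838 lower genes were 1668 and 1057 with DESeq2, 1536 and 848 with limma-voom, 1546 and 921 with the size factors of DESeq2 in edgeR, and 1885 and 979 without the filter on low counts. Scaling by library totals alone gave 2671 and 405. Leaving out 1 library at a time gave 971 to 1472 higher and 384 to 797 lower genes, on fewer samples. With the replicate number as a block, edgeR called 1130 higher and 467 lower genes. The numbers do not pair the samples: deviations from the group means of same-numbered libraries correlated at -0.04, -0.15 and -0.15 across genes. Of 248 named genes 187 lost the call under none of the 12 alternatives and 61 lost it under at least 1. A gene that an alternative gave no adjusted p was counted as keeping its call. None of these alternatives reversed the direction of a named gene. Scaling by library totals alone turned more lower than higher calls into more higher than lower for long noncoding genes (55 higher and 45 lower), one-carbon genes (9 and 6), retinoid genes (7 and 3), growth hormone, insulin and leptin signalling (8 and 2), chaperones (5 and 3), Zfp genes (13 and 1), autophagy genes (1 and 0), mitochondrial ribosomal proteins (1 and 0) and liver noncoding RNAs (2 and 1). It also moved phospholipid and sphingolipid genes to 22 and 1, conjugation enzymes to 4 and 9, secreted regulators to 13 and 3, and class I genes to 5 and 0. Depth limits low genes most, since a count of 0 in a group allows up to 3 counts there.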

Other observations

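Retinoid, eicosanoid and zinc finger genes were counted as well. Of 27 retinoid genes 3 rose and 7 fell, and scaling by library totals alone turned this to 7 higher and 3 lower. The lower retinoid count was 4 without chow library 1, 4 without chow library 3, 4 without NASH library 1 and 3 without NASH library 2. Rdh9 and Rdh16, dehydrogenases that act on retinol and steroids, had log2 fold changes of 1.39 ± 0.20 and 1.30 ± 0.22 (SE, 3 libraries per group; edgeR adjusted p = 0.001499 and 0.00295). Rdh11, a retinal reductase, stood at -1.35 ± 0.23 and Bco2, which cleaves carotenoids, at -0.94 ± 0.16 on the same scale. Of 331 zinc finger protein genes of the Zfp series 5 rose and 6 fell, 3.32% called beside 17.0% of all genes, and scaling by library totals alone gave 13 higher and 1 lower. Zfp423, a factor of fat cell precursors, rose by 2.91 ± 0.62 on the log2 scale and lost its call under none of the 12 alternatives. With libraries left out, the higher Zfp count was 1 without chow library 1, 3 without NASH library 1, 1 without NASH library 2 and 3 without NASH library 3, and the lower count 3 without chow library 1, 2 without chow library 2, 0 without NASH library 1 and 2 without NASH library 2. Of 21 eicosanoid and lipid mediator genes 4 rose and 2 fell, with Ptgs1, the constitutive cyclooxygenase, higher by 1.13 ± 0.21 on the log2 scale, the higher count was 2 without chow library 1, 2 without chow library 2, 2 without NASH library 1 and 2 without NASH library 2, and the lower count 1 without chow library 1, 1 without chow library 2, 0 without chow library 3, 0 without NASH library 1, 1 without NASH library 2 and 1 without NASH library 3.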
